A study of Saccharomyces cerevisiae with 4 samples.

Results

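The TCA cycle enzyme genes described here are CIT1, ACO1, IDH1, IDH2, KGD1, KGD2, LSC1, LSC2, FUM1 and MDH1 of Saccharomyces cerevisiae, chosen by symbol as the mitochondrial enzymes of the cycle without succinate dehydrogenase. All 10 were on the arrays with 1 spot each, among 6051 genes and unnamed spots. RNA was taken from cells carrying hsf1-R206S/F256S on 2 arrays and from cells with wild-type HSF1 on 2 arrays, and both strains had been at 39 °C for 15 min. The allele changes 2 amino acids of Hsf1, the essential heat shock transcription factor. The labels describe oligo(dT)-primed cDNA from total RNA, labelled with radioactive dCTP, so an array shows 1 sample. No unheated cells were analysed here, and the labels are silent on the strain background, the carbon source and the way the allele is carried.

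The TCA cycle runs in the mitochondrial matrix, where it oxidises acetyl groups to carbon dioxide and passes electrons to the respiratory chain. It also supplies oxoglutarate and oxaloacetate, from which cells build glutamate, aspartate and further amino acids. In yeast, glucose represses many of these genes. The Hap2/3/4/5 complex activates them in respiring cells, and the Rtg1 and Rtg3 factors maintain those of the early steps, CIT1, ACO1, IDH1 and IDH2, when mitochondria are impaired. Isozymes in the cytosol or the peroxisome carry out some of the same reactions.

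The deposited intensities were brought to a common distribution by quantile normalization and are given below in arbitrary units. Values below 0 were set to 0 and an offset of 1.06 was added before log2, which shrinks the differences of dim genes. A spot counted as above background on an array when its deposited value exceeded 3 noise SDs, the noise being estimated from that array's negative values. By that limit 61.2% and 41.5% of the spots were above background on mutant replicates 1 and 2, and 40.6% and 24.9% on wild-type replicates 1 and 2. Pearson's r between the arrays of a strain was 0.813 for the mutant and 0.687 for the wild type. It was taken over genes, which are no independent replicates. Wild-type replicate 1 correlated more closely with mutant replicates 1 and 2, at 0.745 and 0.753, than with wild-type replicate 2. Among genes whose mean log2 over the 4 arrays exceeded the mean background limit, these values were 0.722 and 0.771, against 0.808 with wild-type replicate 2. Every array has a lot of its own in the labels, and nothing there tells whether replicates came from separate cultures, so p-values measure the spread between these arrays, which may be technical. HSP82, an Hsp90 gene that Hsf1 drives, lay at 23.3 and 17.0 on the mutant arrays and at 202 and 200.2 on the wild-type arrays. The HSF1 spot itself, which cannot show the amino acid changes, stood at 625 and 540 on the mutant arrays and at 37.1 and -3.61 on the wild-type arrays. It was above background on both mutant arrays and on wild-type replicate 1, and its log2 difference was 3.93 without wild-type replicate 2. The part of this difference in HSF1 signal in the results below was not tested.

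The 10 TCA cycle genes showed no common direction between the strains. Their means were lower in the mutant for 5 genes and higher for 5, and the median log2 difference, mutant minus wild type, was -0.0014, against 0.01 over all 6051. The median of the 10 was 0.33 as deposited, where that of all genes was 0.63, and -0.39 with median scaling, where that of all genes was 0.05. The even split included dim genes. Of the 5 members above background on both arrays of a strain, 4 were lower in the mutant and 1 was higher. Their median was -0.37, where that of all genes so filtered was 0.23. Among the 6 members whose mean log2 exceeded the mean background limit, 4 were lower and 2 higher. The median of those 6 was -0.35, against 0.09 for all such genes. MDH1, the last enzyme of the cycle, was the gene with the clearest gap, 2.66-fold lower in the mutant. A fold rule asked for a difference of 2-fold or more with no overlap between the arrays of the strains. MDH1 met it downward, 1 of 10 genes, where 12.8% of all genes did. FUM1 met it upward, also 1 of 10, where 13.5% of all genes did, but FUM1 was not above background on either wild-type array. The arrays of the strains did not overlap for 3 of the 10, MDH1, FUM1 and LSC2, against 40.4% of all genes. Each of these shares by the fold rule or by overlap lies near or below that of all genes, so none of them sets the TCA cycle genes apart.

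With limma's moderated test and Benjamini-Hochberg adjustment over all genes, 0 of the 10 genes were past 0.05, as were 0 of all 6051 (0%). The smallest adjusted p over all genes was 0.277. At an unadjusted p under 0.05 in limma, 1 of the 10, MDH1, was past the threshold, against 11.7% of all genes. With 2 arrays against 2, an exact permutation test of 1 gene cannot give a two-sided p below 0.333. The 95% intervals of the differences were wide. They included 0 for 9 of the 10 genes, a 2-fold lower level for 8 and a 2-fold higher level for 8, so equal levels are not shown either.

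**Figure D1:**
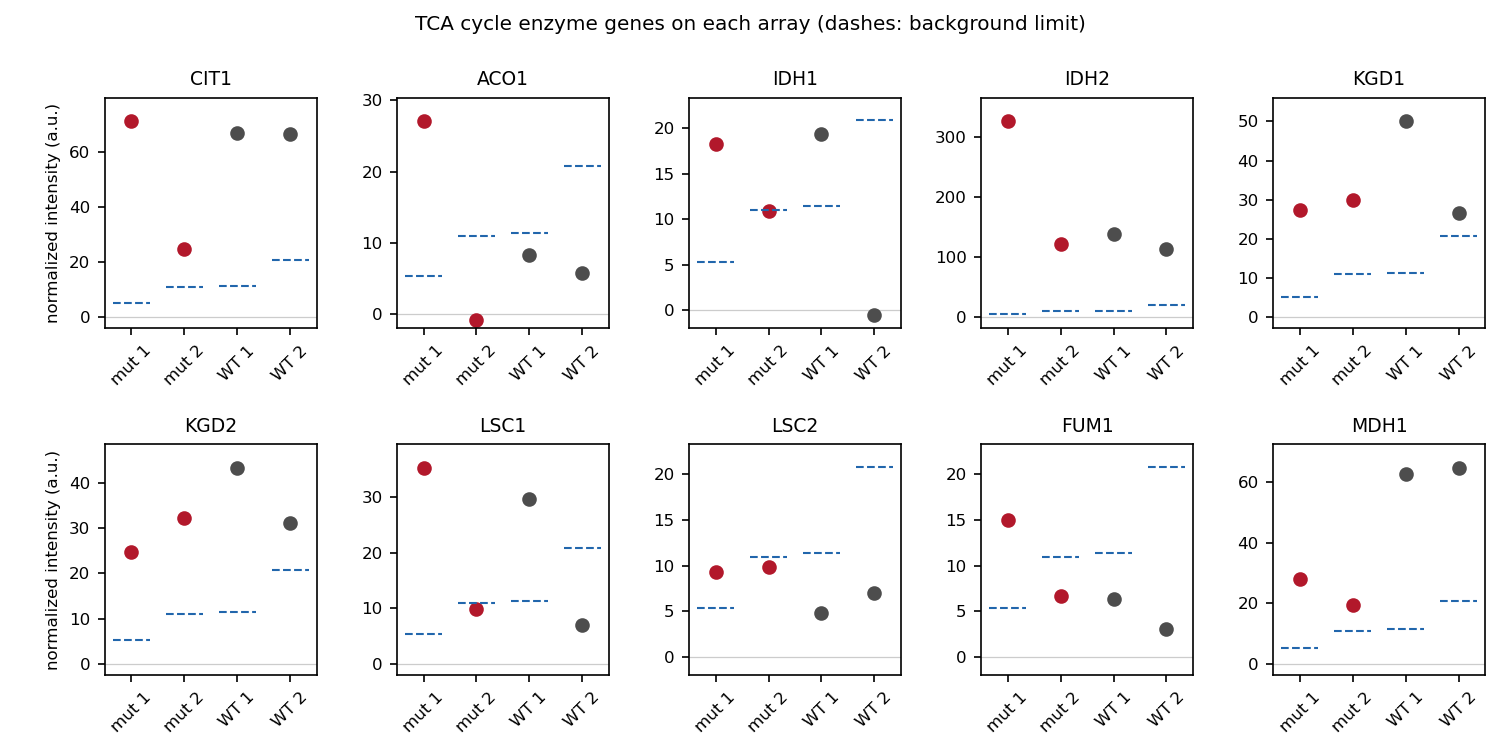
Quantile-normalized intensity in arbitrary units (vertical axes, linear and different for each gene) of the 10 TCA cycle genes on mutant replicates 1 and 2 (red) and wild-type replicates 1 and 2 (grey). Blue dashes give each array's background limit. The strains separate clearly for MDH1, while for CIT1, ACO1, IDH2 and LSC1 mutant replicate 1 stands far above mutant replicate 2.

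Citrate synthase, encoded by CIT1 (YNR001C), joins acetyl-CoA to oxaloacetate and so opens the cycle. CIT1 had normalized intensities of 71.2 and 25.0 on mutant replicates 1 and 2, against 67.0 and 66.6 on wild-type replicates 1 and 2. The first mutant array thus lay just above the wild-type arrays and the second far below them. The mean was 48.1 ± 32.7 in the mutant and 66.8 ± 0.227 in the wild type (SD, n = 2 each), and the log2 difference was -0.65 (SE 0.66), with an adjusted p of 0.736 in limma. Leaving out mutant replicate 1 gave -1.38 and leaving out mutant replicate 2 gave 0.092, so the value rests on which mutant array is used. With median scaling it was -1.08.

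Aconitase, encoded by ACO1 (YLR304C), turns citrate into isocitrate with an iron-sulfur cluster and also helps to maintain mitochondrial DNA. ACO1 had 27.2 and -0.767 on mutant replicates 1 and 2, against 8.38 and 5.76 on the wild-type arrays. The mutant arrays lay on both sides of the wild-type ones. ACO1 was above background on mutant replicate 1 alone, so no fold is given. Its log2 difference of -0.55 (SE 1.83) became 1.81 without mutant replicate 2 and -2.92 without mutant replicate 1.

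NAD-dependent isocitrate dehydrogenase makes oxoglutarate and is built from a regulatory subunit, Idh1, and a catalytic one, Idh2. The IDH2 (YOR136W) spot read 327 and 122 on mutant replicates 1 and 2, against 139 and 115 on the wild-type arrays. The second mutant array therefore lay between the wild-type ones. The mean was 224 ± 145 in the mutant and 127 ± 17.0 in the wild type (SD, n = 2 each), and the log2 difference 0.66 (SE 0.65), with an adjusted p of 0.728 in limma. Without mutant replicate 1 it was -0.051, and with median scaling -0.23.

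IDH1 (YNL037C) read 18.3 and 10.9 on the mutant arrays, against 19.3 and -0.561 on wild-type replicates 1 and 2. It was above background on 1 array of each strain. Its log2 difference of 1.71 (SE 1.66) was the highest of the 10, but it rested on the negative value of wild-type replicate 2. Without that array it was -0.42, and it was likewise -0.42 with negative values left out. The log2 differences of IDH1 and IDH2 were 1.05 apart, with wide errors on both.

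The oxoglutarate dehydrogenase complex makes succinyl-CoA and releases carbon dioxide. Its core enzymes are Kgd1, which decarboxylates oxoglutarate, and Kgd2, which carries the succinyl group on lipoate. The KGD1 (YIL125W) intensities were 27.5 and 29.8 on the mutant arrays, against 50.1 and 26.7 on the wild-type arrays. Both mutant arrays lay between the wild-type ones. For KGD2 (YDR148C) they were 24.7 and 32.3 on the mutant arrays, against 43.4 and 31.1 on the wild-type arrays, again with overlap. Both genes were above background on all 4 arrays.

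KGD1 and KGD2 had nearly equal log2 differences of -0.34 (SE 0.49) and -0.37 (SE 0.43). Their 95% intervals ran from -1.78 to 1.10 for KGD1 and from -1.61 to 0.88 for KGD2, with adjusted p of 0.814 and 0.772 in limma. In both genes wild-type replicate 1 was the highest array. Without it the difference of KGD1 was 0.10. KGD1 differed by 0.16 and KGD2 by 0.14 as deposited, where the median of all genes was also shifted upward, at 0.63.

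Further subunits of the same complex had lower means in the mutant. KGD4 (YFR049W), which tethers the E3 subunit to the core, lay at 8.53 and 4.94 on the mutant arrays, against 17.2 and 38.3 on the wild-type arrays. It was above background on 1 mutant array and on both wild-type arrays. The 3.53-fold lower mean, or -1.82 (log2) and -1.22 as deposited, met the fold rule, with an adjusted p of 0.416 in limma. LPD1 (YFL018C) encodes that E3 subunit, dihydrolipoamide dehydrogenase, which the pyruvate dehydrogenase complex shares. LPD1 met the fold rule downward too, at 0.644 and 0.612 on the mutant arrays against 7.43 and 8.25 on the wild-type arrays, but it was not above background on any array, so no fold is given.

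Succinyl-CoA ligase makes succinate with formation of ATP, the substrate-level phosphorylation step of the cycle, from an alpha subunit (Lsc1) and a beta subunit (Lsc2). LSC1 (YOR142W) had 35.4 and 9.89 on mutant replicates 1 and 2, against 29.7 and 7.04 on wild-type replicates 1 and 2. In each strain replicate 1 was thus far above replicate 2. LSC1 was above background on replicate 1 of each strain and not on replicate 2, so that gap is not a measured fold. The difference between the strains was small beside it, at 0.34 (SE 1.04, log2). Leaving out mutant replicate 1 gave -0.53, leaving out wild-type replicate 2 gave -0.62, and leaving out wild-type replicate 1 gave 1.30.

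LSC2 (YGR244C) had 9.34 and 9.82 on the mutant arrays, against 4.86 and 7.01 on the wild-type arrays. The strains did not overlap, and the mutant was the higher one. LSC2 was above background on 1 mutant array and on neither wild-type array, so no fold is given. Its log2 difference of 0.62 (SE 0.40) had an adjusted p of 0.664 in limma. It stayed above 0 in the 11 alternatives that held it, at 0.40 to 1.29. A block for replicate number and leaving out values below 0 could not change it.

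Fumarase, encoded by FUM1 (YPL262W), hydrates fumarate to malate and works in the cytosol as well as in mitochondria. FUM1 had 15.1 and 6.71 on mutant replicates 1 and 2, against 6.37 and 3.01 on wild-type replicates 1 and 2. The lower mutant array lay just above the higher wild-type array. Only mutant replicate 1 was above background, so the 2-fold mark that FUM1 passed, with a log2 difference of 1.03 (SE 0.63), is not a measured fold. The adjusted p was 0.649 in limma, and the log2 difference ran from 0.50 without mutant replicate 1 to 1.88 as deposited. FUM1 no longer met the fold rule with cyclic loess (0.98), with 4 times the offset (0.73), without mutant replicate 1 or without wild-type replicate 2 (0.59).

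Mitochondrial malate dehydrogenase, encoded by MDH1 (YKL085W), oxidises malate to oxaloacetate and closes the cycle. MDH1 had 28.0 and 19.3 on the mutant arrays, against 62.7 and 64.8 on the wild-type arrays. All 4 arrays were above background, and both mutant arrays lay far below both wild-type arrays. The mean was 23.7 ± 6.12 in the mutant and 63.7 ± 1.48 in the wild type (SD, n = 2 each), a 2.66-fold lower level. The log2 difference was -1.41 (SE 0.41), with a 95% interval from -2.61 to -0.21, an unadjusted p of 0.0318 and an adjusted p of 0.373 in limma. Of all genes, 76.1% had a log2 difference no larger in size, and 772 genes met the same fold rule downward.

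MDH1 was lower in the mutant in each of the 13 alternatives and met the fold rule downward in each. Its log2 difference ran from -1.72 with median scaling to -1.01 as deposited. A block for replicate number, both filters that drop dim genes and leaving out values below 0 could not change it from -1.41. Leaving out 1 array at a time gave -1.67 to -1.16. The adjusted p in limma was 0.133 to 0.591 over these alternatives. In the 4 fits without 1 array, a strain with a lone array is assumed to vary like the other strain, and no gene of the whole table was past 0.05.

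**Figure D2:**
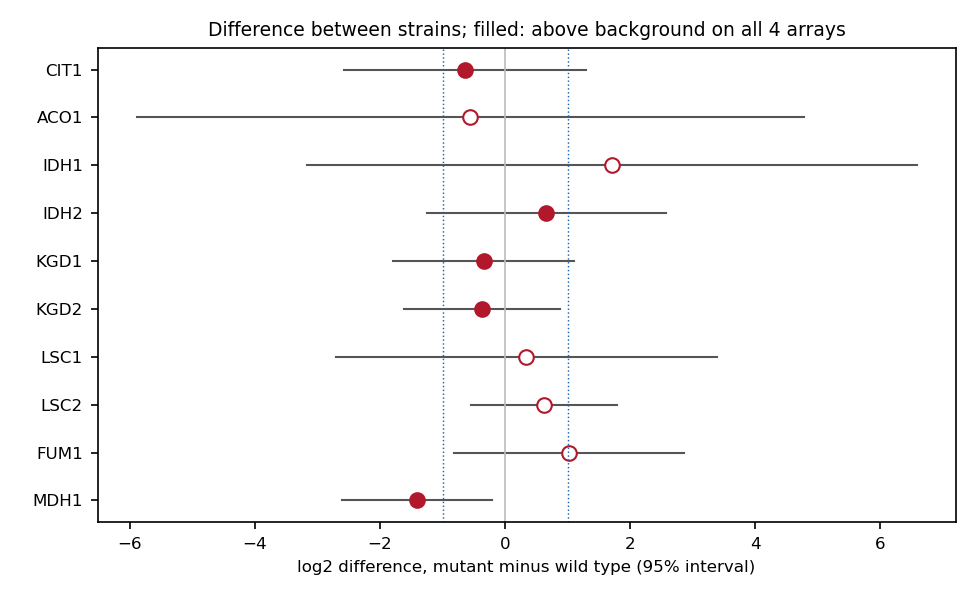
Log2 difference, mutant minus wild type (horizontal axis), of the 10 TCA cycle genes in the order of their reactions, with 95% intervals from limma as lines. Filled points are genes above background on all 4 arrays, and dotted lines mark 2-fold. MDH1, at -1.41, is the 1 gene whose interval does not include 0.

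For 8 of the 10 genes the gap between the replicates of at least 1 strain was larger than the difference between the strains. LSC2 and MDH1 were the 2 genes whose strain difference exceeded both gaps, 20% of the 10, against 28.0% of all genes. The mutant arrays differed by over 1 on the log2 scale for 5 of the 10 genes, against 1989 of all 6051. The 5 were CIT1, ACO1, IDH2, LSC1 and FUM1, and in each of them mutant replicate 1 was the higher array. The wild-type arrays differed by over 1 for 2 of the 10, against 2699 of all 6051. The median gap between the mutant arrays was 0.87 over the 10 genes, against 0.60 over all genes, and the median gap between the wild-type arrays was 0.47, against 0.83 over all genes. Mutant replicate 1 was above mutant replicate 2 for 7 of the 10 genes, against 49.4% of all genes, and wild-type replicate 1 above wild-type replicate 2 for 8 of 10, against 50.4% of all genes. The part of this pattern in the strain differences was not tested.

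Leaving out an array therefore turned several genes. Without mutant replicate 2, 7 of the 10 genes were higher in the mutant, the median was 0.90, and ACO1, FUM1, IDH2 and LSC1 met the fold rule upward, as did 19.8% of all genes in that fit. Without mutant replicate 1, 7 were lower, the median was -0.23, and ACO1, CIT1 and MDH1 met it downward, as did 16.5% of all genes in that fit. With 1 array against 2, no overlap is easier to reach, so these counts are not set against those from all 4 arrays. MDH1 was the 1 gene that met the rule in the same direction in all 4 of these fits.

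**Figure D3:**
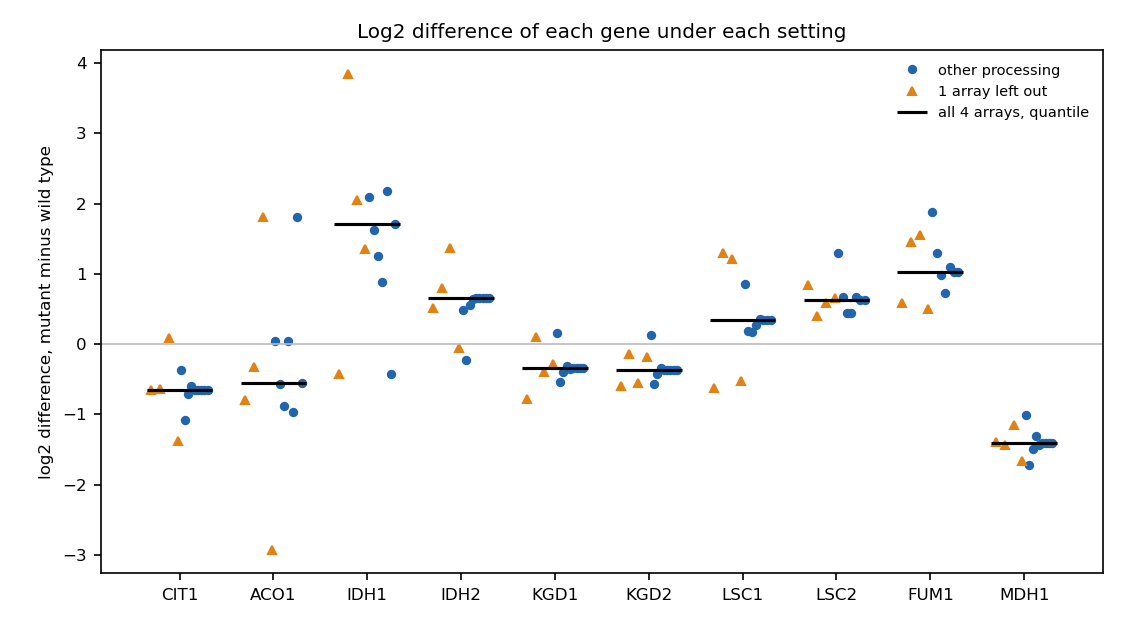
Log2 difference, mutant minus wild type (vertical axis), of each TCA cycle gene. The black bar is the value from all 4 arrays with quantile normalization, orange triangles are fits without 1 array and blue points other processing. MDH1, LSC2 and FUM1 keep 1 sign throughout, and ACO1 runs from -2.92 to 1.81.

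Succinate dehydrogenase, which carries the step between succinate and fumarate and belongs to the respiratory chain as well, was set beside the 10 genes. Of its 7 measured subunit and assembly genes 6 had a lower mean in the mutant, against 48.5% of all genes. Their median log2 difference was -1.07 (-0.44 as deposited and -0.35 without mutant replicate 2). Dim genes carried much of this count and median, which is the value of SDH5. Of the 7, only SDH2 and SDH4 (2 genes) were above background on all 4 arrays. SDH7 (-1.48) was above background on no array. SDH8 (-1.15) was above it on 1 array of each strain, and its strains overlapped. The fold rule was met by 2 of the 7, both downward, where 12.8% of all genes met it downward. SDH3 (YKL141W), a membrane anchor subunit, lay at 8.64 and 9.83 on the mutant arrays, against 52.2 and 65.1 on the wild-type arrays, and was 5.78-fold lower with an adjusted p of 0.277 in limma. It was above background on 1 mutant array. SDH5, which attaches FAD to the flavoprotein, was lower in the mutant but above background on only 1 array of each strain, so no fold is given. Its log2 difference of -1.07 was past the 2-fold mark, but not as deposited (-0.44), with 4 times the offset (-0.84) or without wild-type replicate 2 (-0.85). The log2 differences of the catalytic subunits were 0.40 (SE 0.84, log2) for SDH1, which was above background on 1 array, and -0.04 (SE 0.39) for SDH2. SDH1 was 1.35 as deposited and -0.33 without mutant replicate 1, and SDH2 was -0.84 with median scaling. SDH4 differed by -0.66 (SE 0.44).

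Isozymes of the TCA cycle enzymes gave a mixed picture. CIT2 (YCR005C), the peroxisomal citrate synthase and a classic target of the Rtg factors, lay at 53.7 and 35.2 on the mutant arrays, against 11.4 and 28.9 on the wild-type arrays. In the mutant CIT2 was thus 2.31-fold higher, past the fold rule, with a log2 difference of 1.21 (SE 0.64) and an adjusted p of 0.594 in limma. Its value on wild-type replicate 1 stood at that array's background limit, 8.96 as deposited against a limit of 8.95. The log2 difference was 0.57 when wild-type replicate 1 was left out and 1.84 when wild-type replicate 2 was. CIT1, its mitochondrial counterpart, had the opposite sign. That difference between the isozymes was not tested. MDH2, the cytosolic malate dehydrogenase, differed by -1.03 (SE 0.73) with overlapping strains, and MDH3, the peroxisomal one, by -0.18 (SE 0.39), or 0.45 as deposited. IDP1, the mitochondrial NADP-dependent isocitrate dehydrogenase, differed by 0.57 (SE 0.44). CIT3, IDP2 and IDP3 were not above background on any array. Of the 9 measured genes of this list, 1 met the fold rule upward and 0 downward, against 13.5% and 12.8% of all genes.

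The step that feeds acetyl-CoA into the cycle did not differ by the fold rule apart from LPD1. Among 12 genes of pyruvate import and the pyruvate dehydrogenase complex, 6 had a higher and 6 a lower mean, with a median of -0.05, or 0.46 as deposited. PDA1 and PDB1, which encode the subunits of its E1 enzyme, differed by -0.16 (SE 0.37) and 0.55 (SE 0.45). Of 7 genes of the glyoxylate cycle and gluconeogenesis 4 were above background on no array, among them ICL1. PCK1, the gluconeogenic phosphoenolpyruvate carboxykinase, met the fold rule upward at 15.0 and 17.9 on the mutant arrays, against 12.4 and -9.09 on the wild-type arrays. Without wild-type replicate 2 its log2 difference of 2.21 was 0.37. ACS1, an acetyl-CoA synthetase dim on all 4 arrays, met the rule downward, at -1.91 (log2), or -0.25 as deposited. For 8 carriers of cycle intermediates, 5 of them above background on no array, OAC1 met the rule upward and YHM2 downward. Of all genes, 13.5% met the rule upward and 12.8% downward. YHM2 was dim on all 4 arrays, and its log2 difference of -1.32 was -0.14 as deposited and -0.46 with median scaling. OAC1 was above background on 1 mutant array, and its log2 difference of 1.84 was 0.78 without wild-type replicate 2.

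Among 13 genes of regulators, 1 met the fold rule upward and 3 downward, where 13.5% and 12.8% of all genes did. HAP1 (YLR256W), a haem-responsive activator of respiratory genes, lay at 513 and 523 on the mutant arrays, against 215 and 95.2 on the wild-type arrays, 3.60-fold higher with an adjusted p of 0.386 in limma. Its log2 difference of 1.85 was 0.79 with median scaling and 1.26 without wild-type replicate 2. HAP2, a DNA-binding subunit of the Hap complex, lay at 17.7 and 17.6 on the mutant arrays, against 60.5 and 27.1 on the wild-type arrays, 2.23-fold lower with an adjusted p of 0.561 in limma, or -1.16 on the log2 scale and -0.64 as deposited. HAP3 and RTG3 met the rule downward but were not above background on any array, so no fold is given. HAP4, the limiting activator subunit, differed by -0.29 (SE 0.48), or 0.31 as deposited. Of 11 genes that supply lipoate and iron-sulfur clusters, the cofactors of Kgd2 and Aco1, 2 met the rule upward, against 13.5% of all genes. The 2 were the scaffold gene ISU1, above background on no wild-type array, and ISA1, above background on 1 wild-type array. ISA1 was 2.44-fold higher, with 39.9 and 12.5 on the mutant arrays against 11.7 and 6.24 on the wild-type arrays. The log2 difference of ISA1 was 1.29, and 0.49 when mutant replicate 1 was left out.

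**Figure D4:**
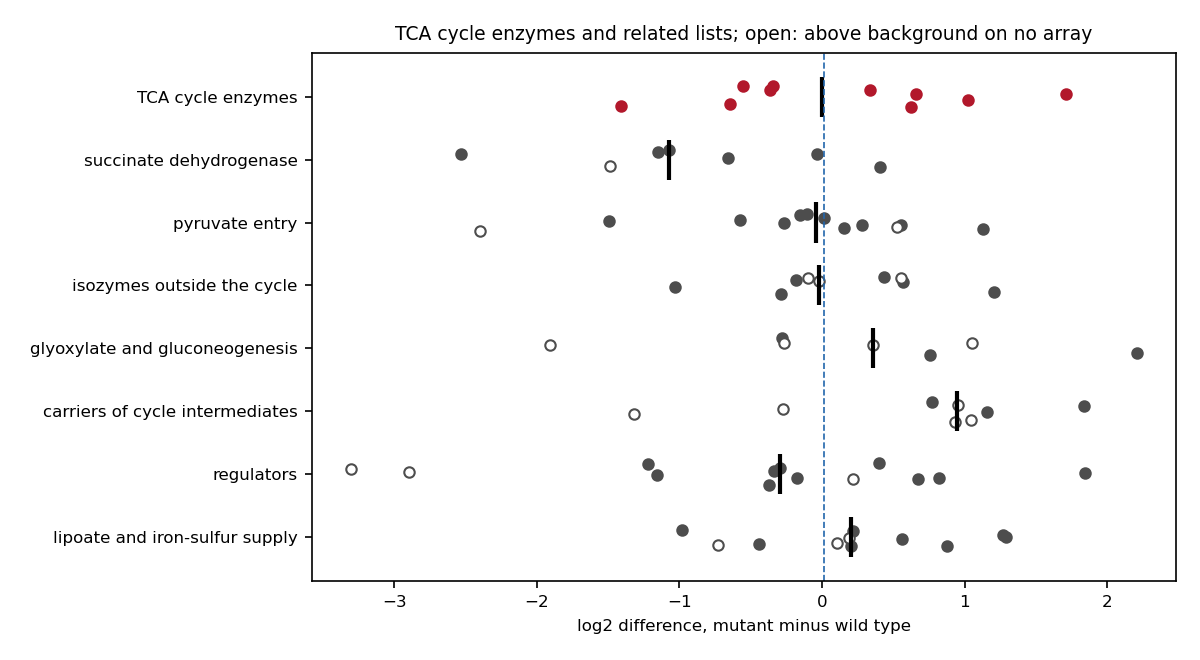
Log2 difference, mutant minus wild type (horizontal axis), of the 10 TCA cycle genes (red) and of the genes of 7 related lists (grey). Open points are genes above background on no array, black bars are list medians and the dashed line is the median of all genes, 0.01. The 10 TCA cycle genes, 5 of them above background on all 4 arrays, lie on both sides of it. The succinate dehydrogenase list has the lowest median, -1.07, with 2 of its 7 genes above background on all 4 arrays.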

How the data were processed

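The deposited table holds 1 intensity per spot and array on a linear scale, for 6084 spots. Per the labels, cDNA was made from total RNA with oligo(dT). Of software, background method and scaling the sources used here say nothing. The column means lie between 32.4 and 32.6, and each array holds negative values. GEO's platform annotation, which can be old, named 5523 spots and left 561 unnamed, and 5523 symbols were checked by gene identifier. No coordinates or sequences are printed.

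Quantile normalization, the floor at 0, the offset (5th percentile of positive values), log2, averaging of spots per gene and the fit (lmFit and eBayes, two-sided, 2 residual and 1.54 prior degrees of freedom) used limma 3.58.1 in R 4.3.3. The fit was tested on simulated data. Intensities with an SD precede the offset, and folds come from log2 means with it. "At least" folds against the background limit were under 1 for the genes dim in 1 strain, so none is given. A fold rule, without a p-value, counts differences of at least 2-fold with no overlap. The members and lists were chosen with earlier results of these data known. All 10 members are named, and of the other lists the fold-rule genes and direct partners or isozymes. 5 of the 10 members passed a filter for both arrays of a strain above background.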

Additional observations from a re-analysis of the deposited data

How the results depend on the processing

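Across the 13 alternatives none of the TCA cycle genes that each held (5 and 6 under the filters on dim genes, 10 otherwise) passed an adjusted p of 0.05 in limma. The number of genes called over the whole table was 0 with all genes, 1 among genes above background on both arrays of a strain and 12 among genes bright over all 4 arrays. Members past the fold rule downward numbered 1, but 2 with median scaling and 1 to 3 without 1 array, where 16.5% to 23.2% of all genes met it, against 12.8% with all 4 arrays. Upward they numbered 1, but 2 as deposited and with values below 0 left out, 0 with cyclic loess, 4 times the offset and either filter on dim genes, and 0 to 4 without 1 array, where 17.4% to 21.3% of all genes met it, against 13.5% with all 4 arrays. In these 4 fits a lone array is assumed to vary like the other strain, and no overlap is easier to reach with 1 array against 2. Their counts and shares therefore cannot be compared directly with those from all 4 arrays. With median scaling 12.8% of all genes met the rule downward. Upward the share was 11.8% with values below 0 left out, 13.3% with cyclic loess and 8.87% with 4 times the offset. It was 18.7% of the genes above background on both arrays of a strain and 12.7% of those bright over all 4 arrays. The median of the members turned to 0.33 as deposited, where the median of all genes was 0.63 and 5.59% of genes met the rule downward and 28.1% upward. It was 0.16 with 4 times the offset, 0.0038 with the offset at 1/2, and -0.61 to 0.90 without 1 array, 0.25 of these without wild-type replicate 1. Among genes above background on both arrays of a strain it was -0.37, where the median of all such genes was 0.23. Among genes bright over all 4 arrays it was -0.35, against 0.09. Members that turned sign were ACO1 (0.050 as deposited, 0.038 with 4 times the offset, 1.81 with values below 0 left out), IDH1 (-0.42 with values below 0 left out), IDH2 (-0.23 with median scaling), and KGD1 and KGD2 (0.16 and 0.14 as deposited). Without 1 array at a time, CIT1 ran from -1.38 to 0.092, ACO1 from -2.92 to 1.81, IDH1 from -0.42 to 3.84, IDH2 from -0.051 to 1.37, KGD1 from -0.78 to 0.10 and LSC1 from -0.62 to 1.30, while KGD2, LSC2, FUM1 and MDH1 kept their sign in these fits. The cause was not tested, beyond the arrays or values that each alternative leaves out. The replicate numbers are not stated to pair the arrays, and the deviations of same-numbered arrays correlated at 0.02 across genes. A replicate block cannot move the strain means or the fold rule. The median of the members (-0.0014) and the 1 past the rule in each direction therefore repeat the main fit. Only the p-values could change, and with the block 0 genes were past the adjusted p in limma (510 at an unadjusted p under 0.05). Signal over background limits 5 of the 10 genes, ACO1, IDH1, LSC1, LSC2 and FUM1, and the number of arrays limits the precision of all.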
